A study of Gallus gallus with 205 samples.

Results

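AMN1, PTN, NDRG1, NSUN6 and LOC101747643 are 5 genes whose transcripts differed in pooled level between the primitive streak and the tissue around it in single cells of the stage 4 chicken embryo. They are 5 of the 20581 genes complete in both deposited tables, and were picked for a large difference in pooled level between streak and surround. AMN1, PTN and NDRG1 were picked as higher in the surround, and NSUN6 and LOC101747643 as higher in the streak. Those differences are therefore a description here, and none was tested.

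The cells came from White Leghorn chicken eggs incubated to Hamburger-Hamilton stage 4, with no allele, transgene or drug named. Incubation time was labelled as a window of several hours, the same for all cells except 1 streak cell with a narrower window. The age of a cell within its window is not given, so ages cannot be compared between streak and surround. The streak had been cut out of the embryo, and the rest of the area pellucida, the clear central field of the blastoderm, was collected apart from it. The streak cells are named in 4 title series, cPS (27 cells), cPS1 (37), cPS2 (59) and cPS3 (52), and the surrounding region gave the series cSR (30 cells). The labels name 0 embryos or cultures, so each series counts as 1 sample, its cells are not replicates, and there is no test, standard error or p-value.

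At this stage epiblast cells move into the streak, leave the epithelium and spread as mesoderm and endoderm, and mesoderm that has left the streak lies in the surrounding area pellucida. PTN, pleiotrophin, is a secreted heparin-binding growth factor related to midkine, and its receptors include the phosphatase PTPRZ1, the kinase ALK and syndecans. NDRG1 is a cytoplasmic protein named for its repression by N-myc, and it rises with differentiation and low oxygen in many human cells. NSUN6 is an enzyme that methylates cytosine in transfer and messenger RNA, known from human and mouse. AMN1 carries leucine-rich repeats, and its yeast namesake antagonises the mitotic exit network. LOC101747643 has only its identifier in the table.

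The deposited values, expected counts per gene, are given here as CPM, the count scaled to the same total in every cell, with 1 CPM being 1 count in 1000000. Totals ran from 201170 to 4552697 with a median of 2459318, and were alike in cPS (median 2485547) and cSR (median 2478990). For a pooled CPM the counts of all cells of a series were added up before scaling. A gene was called detected in a cell at 10 CPM or more, which is 24.6 counts in a cell of median total. Bracketed ranges are exact 95% intervals, Poisson for levels and Clopper-Pearson for shares of cells, and they cover counting error only, since no molecular identifiers are described and PCR copies are counted. The intervals of shares treat the cells of a series as independent draws, although they are not replicates. The members were picked for the streak to surround difference, so intervals lying apart between tissues describe it and do not test it. The cPS and cSR cells share the 2 lower of 4 blocks of library identifiers, while cPS1, cPS2 and cPS3 lie in the other 2 blocks with no cSR cell. For those 3 series streak against surround cannot be told apart from block, and cPS against cSR is the main comparison. In cSR, 6 cells also carry an epiblast label, 5 of them as source name and 1 as cell type, and they were kept. T, the mesoderm factor brachyury, was detected in 100% of cPS cells and 96.7% of cSR cells, so its detection does not separate the streak label from the surround label.

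At the limit of 10 CPM, AMN1 was the member detected in the most cSR cells. At a limit of 1 CPM that was PTN, in 76.7% of cSR cells against 66.7% for AMN1. The pooled level of AMN1 was 183 CPM in cSR (180 to 186), against 3.48 CPM in cPS (3.06 to 3.94). It was 27.2 CPM in cPS1, 19.5 CPM in cPS3 and 17.7 CPM in cPS2. The highest series was cSR and the lowest cPS, an order that the choice of AMN1 favours. In single cells AMN1 ran from 0 to 689 CPM in cSR with a median of 50.2 CPM, and from 0 to 36.8 CPM in cPS with a median of 0.37 CPM. The ranges overlap at the low end, because 10 of the 30 cSR cells were below the limit of detection. No cSR cell lay between 0.976 and 11.8 CPM, so the surround cells fell on either side of a gap at the limit. AMN1 was detected in 66.7% of cSR cells (47.2 to 82.7), 7.41% of cPS cells (0.91 to 24.3), 27.0% of cPS1 cells (13.8 to 44.1), 16.9% of cPS2 cells (8.44 to 28.97) and 19.2% of cPS3 cells (9.63 to 32.5). The interval of cSR lies above those of the 4 streak series, which the choice of AMN1 favours. The intervals of the streak series overlap each other. Single streak cells nevertheless carried much AMN1. The highest cell reached 370.1 CPM in cPS2, 368.9 CPM in cPS3 and 227 CPM in cPS1.

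The epiblast-labelled cells of cSR had less AMN1 in pooled level than the other cSR cells. It was detected in 1 of the 6 cells with that label (0.421% to 64.1%) and in 19 of the other 24 (57.9% to 92.9%), and these intervals overlap. Its pooled level was 11.9 CPM in the 6 cells (10.2 to 13.8) and 229.9 CPM in the 24 (225.9 to 234). The 6 cells include 4 at 0, whereas none of the other 24 was at 0 and their lowest value was 0.42 CPM. KDR, the receptor of vascular endothelial growth factor that marks lateral and vascular mesoderm, was detected in 3 of the 6 and in 18 of the 24. By share of cells PTN and NDRG1 did not divide these cells in the same way. PTN was detected in 3 of the 6 and 13 of the 24, and NDRG1 in 2 of the 6 and 7 of the 24. In pooled level the other members were also lower with the label. PTN had 115.3 against 135.5 CPM and NDRG1 31.4 against 72.1 CPM, where the 24 include a cell at 821 CPM. NSUN6 had 0.20 against 2.16 CPM and LOC101747643 0.40 against 1.76 CPM.

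PTN was highest in cSR, with wide overlap between series. Its pooled level was 131.1 CPM in cSR (128.5 to 133.9), 54.6 CPM in cPS1 (53.1 to 56.2), 42.7 CPM in cPS3 (41.6 to 43.9), 27.4 CPM in cPS2 (26.6 to 28.2) and 11.7 CPM in cPS (10.9 to 12.5). The share of cells gives another order. PTN was detected in 53.3% of cSR cells (34.3 to 71.7), 51.4% of cPS1 cells (34.4 to 68.1), 40.7% of cPS2 cells (28.1 to 54.2), 22.2% of cPS cells (8.62 to 42.3) and 21.2% of cPS3 cells (11.1 to 34.7). The intervals of the shares in cSR, cPS1, cPS2 and cPS overlap, and that of cPS3 overlaps cSR only from 34.3% to 34.7%. The median cell had 29.5 CPM in cSR, 15.5 CPM in cPS1, 3.55 CPM in cPS2, 0.82 CPM in cPS and 0 in cPS3. In cPS3, 1 cell at 957 CPM held 42.9% of the series' PTN counts and 2 cells held 76.4%, so the pooled level of that series is mostly that of 2 cells. The highest cSR cell, at 577 CPM, was below the highest cPS3 cell and the highest cPS1 cell, at 598 CPM.

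NDRG1 was high in few cells of any series. Its pooled level was 63.4 CPM in cSR (61.5 to 65.3), 14.5 CPM in cPS2 (13.9 to 15.1), 10.97 CPM in cPS (10.2 to 11.8), 8.89 CPM in cPS3 (8.36 to 9.45) and 5.51 CPM in cPS1 (5.03 to 6.02). The median cell had 1.06 CPM in cSR, 0.29 CPM in cPS and 0 in cPS1, cPS2 and cPS3. In cSR, 1 cell at 821 CPM held 54.4% of the NDRG1 counts, and in cPS 2 cells held 91.6%. NDRG1 was detected in 30% of cSR cells (14.7 to 49.4), 22.0% of cPS2 cells (12.3 to 34.7), 15.4% of cPS3 cells (6.88 to 28.1), 11.1% of cPS cells (2.35 to 29.2) and 10.8% of cPS1 cells (3.03 to 25.4). All 5 intervals overlap. The cell with the most counts held a larger share of NDRG1 than of any other member in cPS, cPS1 and cSR, but not in cPS2, where it held 30.5% of NDRG1 and 36.9% of AMN1, nor in cPS3, where it held 33.3% of NDRG1.

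**Figure D1:**
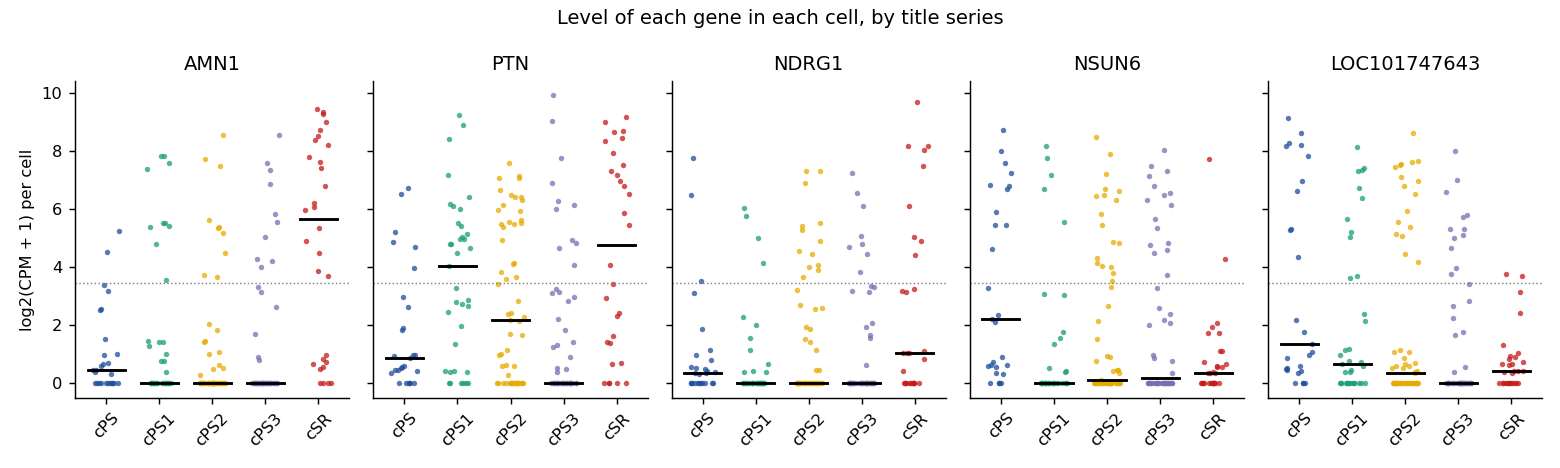
Level per cell, as log2(CPM + 1), of the 5 members in cPS, cPS1, cPS2, cPS3 and cSR, 1 point per cell, with the median of each series as a solid line and 10 CPM as a dotted line. AMN1 lies above 10 CPM in 20 of 30 cSR cells, while NSUN6 and LOC101747643 do so in 2 of 30.

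NSUN6 was detected in the 4 streak series at shares whose intervals overlap each other. Its pooled level was 58.2 CPM in cPS (56.4 to 59.98), 25.4 CPM in cPS3 (24.5 to 26.3), 23.9 CPM in cPS2 (23.1 to 24.6), 18.03 CPM in cPS1 (17.2 to 18.9) and 1.74 CPM in cSR (1.45 to 2.08). It was detected in 40.7% of cPS cells (22.4 to 61.2), 30.8% of cPS3 cells (18.7 to 45.1), 30.5% of cPS2 cells (19.2 to 43.9), 13.5% of cPS1 cells (4.54 to 28.8) and 6.67% of cSR cells (0.818 to 22.1). The interval of cPS lies above that of cSR, which the choice of NSUN6 favours, and those of the other 3 streak series overlap that of cSR. In cPS the values ran from 0 to 416 CPM with a median of 3.61 CPM, so the median streak cell was itself below the limit of detection. In cSR the median was 0.29 CPM, and the highest value, 208.8 CPM, belongs to the cell with the lowest total of all, in which it stands for 42 counts. The next cSR cell had 18.3 CPM. The pooled cSR level rests on few counts, 121.5 in all, of which the shallow cell holds 42. The 2 cells with the most counts held 69.9% of them. Without the shallow cell, a choice made after seeing the data, the log2 ratio of cPS over cSR was 4.79 in place of 4.43. A mean of CPM per cell gives that cell more weight than pooling does, with 8.13 CPM in cSR.

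LOC101747643 had its highest level in cPS, which its choice on cPS against cSR favours. Its pooled level was 92.3 CPM in cPS (90.1 to 94.6), 30.5 CPM in cPS2 (29.7 to 31.4), 23.3 CPM in cPS1 (22.3 to 24.3), 13.8 CPM in cPS3 (13.1 to 14.5) and 1.47 CPM in cSR (1.201 to 1.79). The highest cell reached 563 CPM in cPS, 392 CPM in cPS2, 276 CPM in cPS1 and 253 CPM in cPS3, against 12.7 CPM in cSR. Each streak series had cells far above every cSR cell, which the choice of a gene low in cSR favours. It was detected in 40.7% of cPS cells (22.4 to 61.2), 29.7% of cPS1 cells (15.9 to 47.0), 28.8% of cPS2 cells (17.8 to 42.1), 23.1% of cPS3 cells (12.5 to 36.8) and 6.67% of cSR cells (0.818 to 22.1). Only the interval of cPS lies clear of that of cSR, in the direction this gene was picked for. The median cell of cPS had 1.57 CPM, and 1 cell held 31.1% of the cPS counts of this gene.

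**Figure D2:**
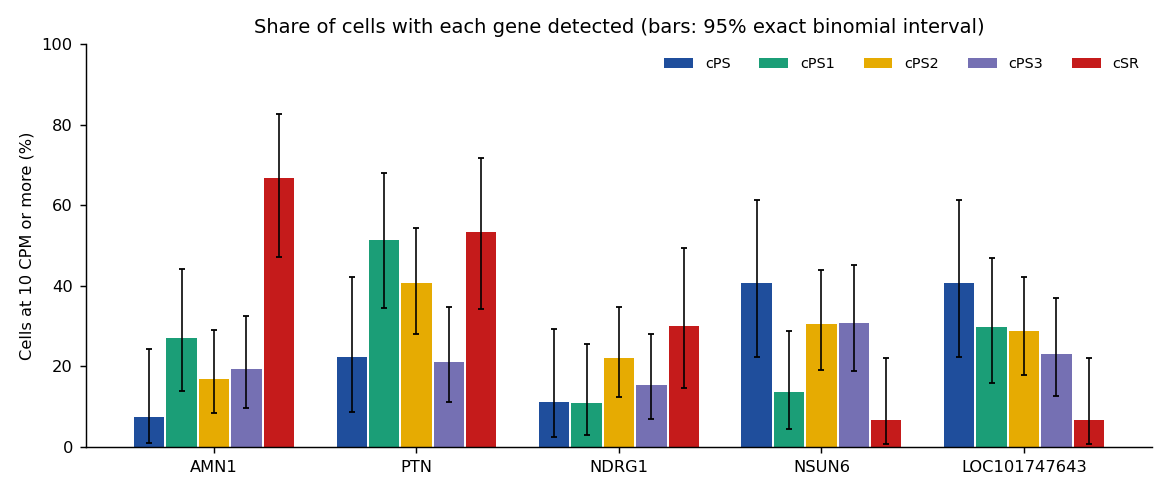
Share of cells at 10 CPM or more (percent) for each member in the 5 series, with exact 95% intervals as bars. The AMN1 share of cSR, 66.7%, stands above the intervals of the 4 streak series, which the choice of AMN1 favours. The intervals of NDRG1 overlap throughout.

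The log2 ratio of pooled levels, with 1 CPM added to each, gives the size of the division between cPS and cSR. It was -5.36 for AMN1, -3.38 for PTN and -2.43 for NDRG1, and 5.24 for LOC101747643 and 4.43 for NSUN6. In its own direction AMN1 ranked 1 of all 20581 genes, LOC101747643 ranked 3, NSUN6 7, PTN 76 and NDRG1 322. All 5 members were at 4-fold or more, where the background was 2.07% of the 20581 genes towards the streak and 2.8% towards cSR. A stricter rule also asked for 50 CPM and detection in 25% of the cells of whichever tissue was higher. All 5 passed it, beside 0.121% of genes towards the streak and 0.214% towards cSR, so that 36.2% of the passing genes lay towards the streak (50.6% with TMM scaling, which shifts the median log2 ratio by 0.146). The members were chosen on this contrast, and nothing is read from those counts. Just inside the 4-fold limit lay OSBPL10 at 2.04 towards the streak and CDX4 at -2.01 towards cSR, and just outside lay EOMES at 1.98 and PICK1 at -1.999.

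For cPS1, cPS2 and cPS3 the ratio was taken over those same cSR cells, so the 4 ratios of a gene share them and are not independent. AMN1 had log2 ratios of -2.71 for cPS1, -3.30 for cPS2 and -3.17 for cPS3, smaller in size than in cPS. NDRG1 had -3.31, -2.05 and -2.70. PTN had -1.25, -2.22 and -1.59, and so stayed under 4-fold in cPS1 and cPS3. NSUN6 had 2.80, 3.18 and 3.27, and LOC101747643 had 3.30, 3.67 and 2.58, all smaller than in cPS. The members were chosen on cPS against cSR, which favours larger ratios in cPS, so nothing is read from that order. At 4-fold stood 2 of the 3 surround members and both streak members in cPS1, where the background was 1.82% towards cSR and 2.3% towards the streak. In cPS2 all 5 stood at 4-fold, beside 1.59% and 1.7%. In cPS3 the surround members numbered 2 and the streak members 2, beside 1.93% and 1.57%. As reported, the division was at least 4-fold in all 4 streak series for AMN1, NDRG1, NSUN6 and LOC101747643, and in 2 of 4 for PTN. Outside cPS, AMN1 alone kept 4-fold under all 12 alternative settings in each series: NDRG1 in cPS2 had -1.46 without its highest cells, and with the mean of log2 values NSUN6 had 0.40 in cPS1 and LOC101747643 had 0.81 in cPS3. The cSR term of each ratio is the same.

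**Figure D3:**
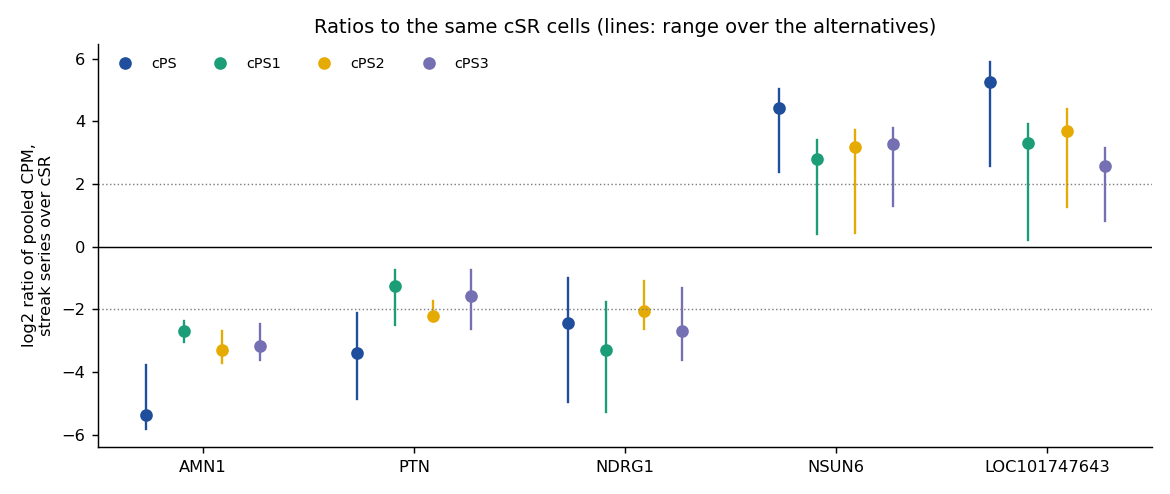
Log2 ratio of pooled CPM (1 CPM added) of cPS, cPS1, cPS2 and cPS3 over the same 30 cSR cells for each member as points, with vertical lines for the range over the alternative settings and dotted lines at 4-fold. PTN, at -1.25 in cPS1 and -1.59 in cPS3, is the member with points inside the 4-fold lines.

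Within the 2 identifier blocks that hold both tissues, AMN1 had a log2 ratio of cPS over cSR of -5.16 in block 1 and -5.45 in block 2. LOC101747643 had 5.22 and 5.46, and NSUN6 had 4.16 and 4.79. The log2 ratios of these 3 genes were about equal in the 2 blocks, but the levels of NSUN6 and LOC101747643 were not. In cPS, NSUN6 had 27.4 CPM in block 1 and 99.9 CPM in block 2, and LOC101747643 had 59.96 and 136.2 CPM. In cSR they had 0.59 and 2.64 CPM, and 0.64 and 2.13 CPM, near the 1 CPM added to each level. PTN had -2.14 in block 1 and -4.88 in block 2, and NDRG1 had -1.01 and -4.96, so in pooled level their size rests more on block 2. For NDRG1 single cells weigh on this. The cSR cell at 821 CPM, with 54.4% of the cSR counts, lies in block 2. The cPS cell at 215 CPM, with 61.5% of the cPS counts, lies in block 1. By share of cells NDRG1 was detected in 38.5% of cSR and 12.5% of cPS cells in block 1, and in 23.5% and 9.09% in block 2. Block 1 holds 16 cPS and 13 cSR cells, and block 2 holds 11 and 17.

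HINTW, a gene of the female-specific W chromosome, divides most cells into those under 100 CPM and those at 700 CPM or more. In cSR, PTN was detected in 10 of 11 cells with low HINTW (58.7% to 99.8%) and 6 of 19 with high HINTW (12.6% to 56.6%). The pooled PTN levels were closer, at 146.6 and 121.7 CPM. By share of cells that division was not seen in cPS1 or cPS. PTN was detected in 7 of 18 low and 6 of 10 high cells of cPS1. In cPS it was detected in 3 of 12 low and 3 of 13 high cells. The pooled PTN levels were nevertheless higher in low cells, at 86.3 against 20.7 CPM in cPS1 and 18.4 against 7.26 CPM in cPS. In cPS2 they were 28.5 and 25.9 CPM, with 21 of 48 low and 3 of 9 high cells detecting PTN. In cPS3 they went the other way, at 36.3 and 72.1 CPM, with 7 of 37 and 3 of 11 cells. NDRG1 in cPS1 was detected in 4 of 18 low cells and 0 of 10 high cells (upper limit of the share 30.8%). In cPS2 the shares went the other way, with 9 of 48 low and 4 of 9 high cells. NDRG1 was detected in 6 of 37 low and 2 of 11 high cells of cPS3. The counts were 2 of 12 and 1 of 13 in cPS, and 3 of 11 and 6 of 19 in cSR. Its pooled level was higher in high cells of cPS and cPS3, lower in those of cPS1 and cSR, and close in cPS2. NSUN6 in cPS had 99.5 CPM in low cells and 30.8 CPM in high cells, with 6 of 12 and 5 of 13 cells detecting it. The labels name no embryo, so HINTW classes cannot be told apart from embryos.

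Cells could also be sorted by which members they held. In cSR, 25 of 30 cells (65.3% to 94.4%) had at least 1 of AMN1, PTN and NDRG1 and neither streak member, 3 had members of both sides and 2 had none. A streak member alone was found in 0 of 30 cSR cells (upper limit 11.6%). Among all streak cells, 49 had only NSUN6 or LOC101747643 (28%), 57 had only surround members (32.6%), 33 had both kinds (18.9%) and 36 had none (20.6%). Streak members without a surround member were found in streak cells alone, while surround members without a streak member were found in cells of both tissues. The members were picked for low or high levels in cSR, so this split largely follows from their choice, and nothing is read from it. Series differed here too: only streak members were found in 10 of 27 cPS cells and in 3 of 37 cPS1 cells. All 3 surround members together were found in 3 of 30 cSR cells and in 5 streak cells (2.86%).

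The surround members were not in the same cells throughout. AMN1 and PTN were detected together in 13 of 30 cSR cells, and their Pearson r of log2(CPM + 1) was 0.35 there. It was 0.52 in cPS1, 0.38 in cPS3, 0.23 in cPS and 0.04 in cPS2. NDRG1 went the other way in the surround: its r in cSR was -0.41 with AMN1 and -0.40 with PTN, over 30 cells. The Spearman rank correlation was weaker with AMN1, at -0.22, and -0.38 with PTN. The 5 cSR cells with NDRG1 but not AMN1 stand beside 4 with both. Over the streak cells of the 4 series those r were 0.13 and 0.05. NSUN6 and LOC101747643 were detected together in 7 of 27 cPS cells with an r of 0.47, but their r was 0.19 in cPS1, -0.03 in cPS2 and -0.11 in cPS3. AMN1 and NSUN6 were rarely found together, in 3 streak cells, whereas AMN1 was detected in 32 streak cells and NSUN6 in 50. These r describe cells that share a series and a library preparation, and most of them are weak.

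The genes whose pattern was most like each member were found by r over all cells of the 5 series after the mean of each series was taken off, which removes the difference the members were picked for. It was computed for 9047 genes detected in at least 20 cells, and cells share library and depth. For AMN1 the highest was KDR at 0.47, followed by FLI1, a factor of vascular and blood progenitors, at 0.45, ATP6AP1L at 0.44, GATA6, a factor of endoderm and lateral mesoderm, at 0.41 and LOC101751102 at 0.40. The lowest were CLDN1, a tight-junction protein, at -0.41 and BTBD6 at -0.36. For PTN the highest were PLXNA2, a semaphorin receptor, at 0.49, NDP, the secreted Norrin ligand, at 0.45, KIAA1462 at 0.45, the plexin gene PLXNA4B at 0.44 and KDR at 0.42. CLDN1 was again the lowest for PTN, at -0.47, with LOC770011 at -0.39. AMN1 and PTN thus shared KDR at the upper end and CLDN1 at the lower end of their lists.

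Over all cells no gene reached an r of 0.4 with NDRG1 or LOC101747643, while 5 genes did with AMN1, 9 with PTN and 2 with NSUN6. For NSUN6 the highest were GRM7, a metabotropic glutamate receptor, at 0.45, LOC769444 at 0.40, LOC101748858 at 0.37, the matrix protein gene THBS4 at 0.37 and HES5, a target of Notch signalling, at 0.36. The r of NSUN6 with GRM7 was 0.73 in cPS, 0.52 in cPS1, 0.42 in cPS2, 0.38 in cPS3 and 0.09 in cSR. With HES5 the r of NSUN6 was -0.21 in cSR. The lowest with NSUN6 were AKAP12, a kinase-anchoring scaffold, at -0.42 and GATA2 at -0.38. For NDRG1 the highest were SLC1A3, a glutamate transporter, at 0.34, SYNPR, UPK3BL and RGN at 0.33 each and SLC5A1, a sodium-glucose cotransporter, at 0.32, and the lowest were PDE10A at -0.35 and C11ORF49 at -0.26. Series differed here: the r of NDRG1 with SLC1A3 was 0.60 in cSR, 0.47 in cPS3, 0.22 in cPS1, 0.21 in cPS2 and -0.07 in cPS. For LOC101747643 the highest were LOC101747727 at 0.39, LOC422293 and the phosphatase gene PPM1G at 0.33 each, INO80C at 0.31 and LOC100858769 at 0.30, and the lowest were NDUFA2 at -0.32 and GPX4 at -0.31. Over all cells the r of NDRG1 and LOC101747643 stayed under 0.4 for every gene measured.

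KDR followed AMN1 in each series except cPS2. In cSR, KDR was detected in 18 of the 20 cells with AMN1 and 3 of the 10 without it, and the r was 0.69. In cPS3 it was detected in 9 of 10 with AMN1 and 5 of 42 without, with an r of 0.74. In cPS1 the counts were 8 of 10 and 10 of 27, with an r of 0.44. In cPS2, by contrast, KDR was detected in 3 of 10 cells with AMN1 and 15 of 49 without, with an r of 0.10. In cPS only 2 cells had AMN1, and both had KDR. For PTN, KDR was detected in 14 of 16 cSR cells with PTN and 7 of 14 without, and in 53.3% of streak cells with PTN against 24.3% of those without. The r of PTN with KDR was 0.41 in cSR and from 0.37 in cPS3 to 0.60 in cPS.

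**Figure D4:**
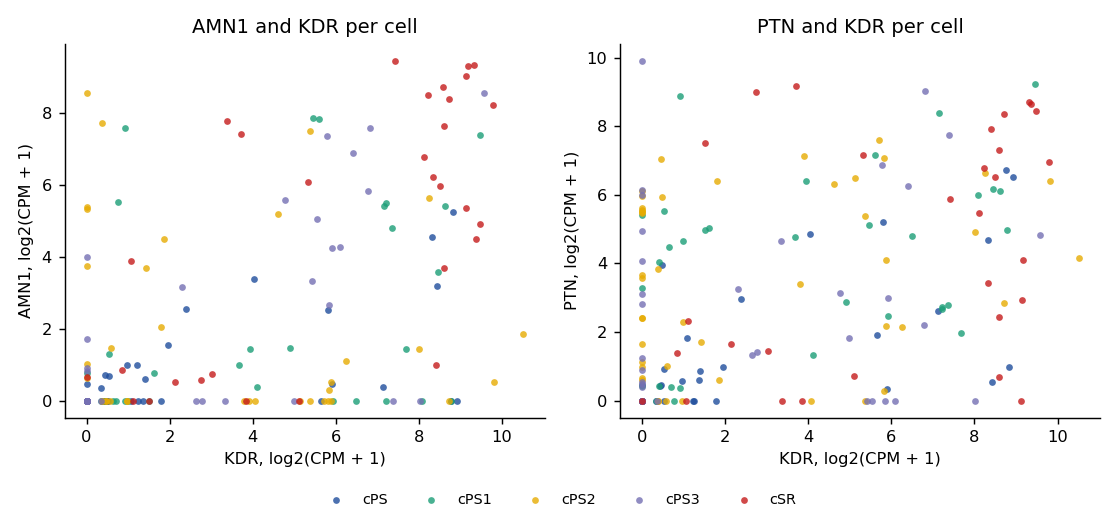
AMN1 (left) and PTN (right) on the vertical axis against KDR on the horizontal axis, each as log2(CPM + 1), 1 point per cell, coloured by series. In cSR, 18 of the 20 cells with AMN1 at 10 CPM or more also had KDR, as did 9 of 10 in cPS3 and 3 of 10 in cPS2.

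Marker lists of other cell types moved with the tissue and with some members. The summed level of the 5 lateral mesoderm genes ran from 2.41 to 2524 CPM in cSR with a median of 352 CPM, and from 0 to 697 CPM in cPS with a median of 15.5 CPM. AMN1 and PTN each had an r above 0 with all 4 genes of that list that were common enough, with a median r of 0.27 for AMN1 and 0.35 for PTN. That sign was not particular to lateral mesoderm. Both also had r above 0 with all 4 endoderm and hypoblast genes measured, with medians of 0.10 and 0.11. With the streak and mesendoderm genes 5 of 6 were above 0 for each, with medians of 0.11 and 0.22. AMN1 and PTN had r below 0 with all 3 epiblast genes measured, with medians of -0.22 and -0.30. NSUN6 had r below 0 with all 4 lateral mesoderm genes, with a median of -0.14. NDRG1 had r of 0.16 and 0.29 with the 2 non-neural ectoderm genes measured, a list whose sum ran from 0 to 1692 CPM in cSR and from 0 to 164.6 CPM in cPS. The summed level of 4 dissociation stress genes was also higher in the surround, from 19.5 to 1125 CPM with a median of 202.4 CPM in cSR, and from 2.41 to 553 CPM with a median of 78.5 CPM in cPS. The r of the members with 3 of those genes ran from -0.06 to 0.18. Other lists were higher in the streak. The 6 streak and mesendoderm genes summed to a median of 3132 CPM in cPS (39.98 to 8881) and 1612 CPM in cSR (29.03 to 11370, the upper value to 4 digits). The node genes CHRD and FOXA2 had log2 ratios of 5.50 and 3.15, and each was detected in 0% of cSR cells, against 33.3% and 29.6% of cPS cells. The other node genes had log2 ratios from -0.27 to 2.54. LOC101747643 had r above 0 with all 4 node genes measured, with a median of 0.13, and NSUN6 with 3 of 4, with a median of 0.10. Neither was particular to the node list. NSUN6 had a higher median, 0.22, with the epiblast genes, of which 2 of 3 were above 0. The highest marker r of LOC101747643 was 0.26, with T. The endoderm genes APOA1 and RBP4 had log2 ratios of 4.27 and 3.19, which their shares of cells did not match. For APOA1 the share at 10 CPM or more was lower in the streak, 25.9% in cPS against 33.3% in cSR. For RBP4 the shares were close, 14.8% in cPS against 13.3% in cSR. The endoderm and hypoblast genes summed to a median of 34.9 CPM in cPS, with a highest cell of 5629 CPM. In cSR these values were 14.4 and 329.5 CPM. NSUN6 and LOC101747643 had r below 0 with all 4 measured genes of the endoderm and hypoblast list. No list had a defining marker at 0 in every cell of both tissues, while the node marker SHH and the germ cell marker DDX4 in cPS and the endoderm marker SOX17 in cSR were at 0 throughout. The part of cell type and of stress in the division of the members was not tested. KDR, with AMN1 and PTN, was the only marker gene at an r of 0.4 or more in size.

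**Figure D5:**
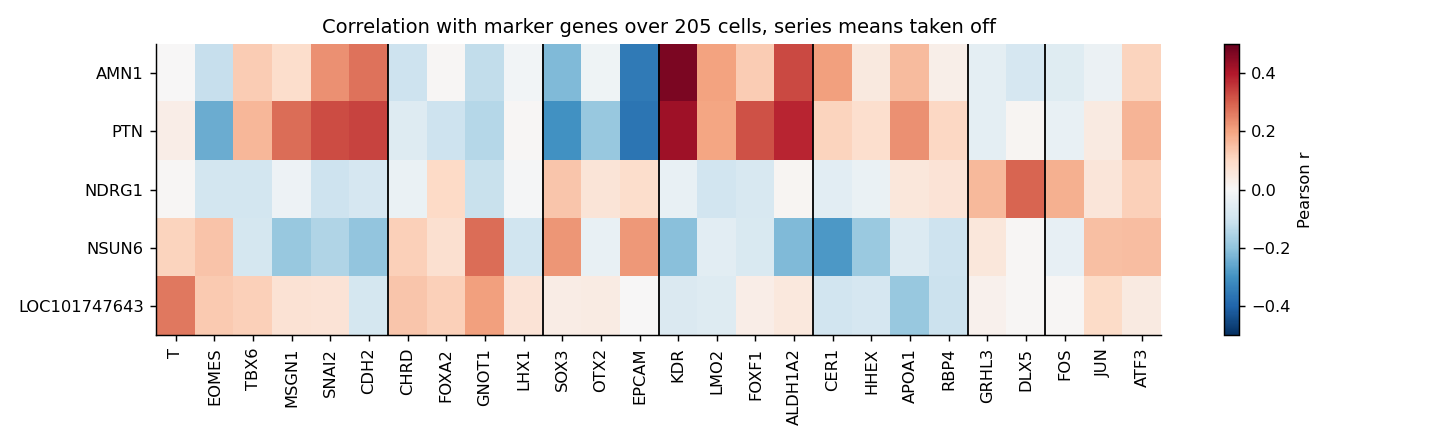
Pearson r over all cells, series means taken off, of each member (rows) with each marker gene found in enough cells (columns, vertical lines between lists), red above 0 and blue below. AMN1 and PTN reach their highest values with KDR, 0.47 and 0.42.

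Genes listed with the members by family, known role or a yeast counterpart were set against the same contrast. The lists hold from 8 to 12 measured genes, too few to set their counts against the shares over all genes, and nothing is read from those counts. Counts here use genes with at least 5 CPM in cPS or cSR, of which 11.7% of 9698 were at 2-fold or more towards the streak and 14% towards cSR, with 3.75% and 5.04% at 4-fold, and their median log2 ratio was -0.04. Of 12 other ligands and receptors of the pleiotrophin group, 2 were at 2-fold towards the streak and 0 towards cSR, with a median of -0.32. The kinase LTK had 1.41, the syndecan SDC3 1.11, LRP1 0.77 and NRP1 -0.93, while MDK, midkine, was detected in 96.7% of cSR cells and 100% of cPS cells and had a log2 ratio of -0.05. PTN and its closest relative thus differed in this contrast by -3.38 against -0.05. PTPRZ1 was below 5 CPM in both tissues.

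Of 12 measured genes of the NDRG family, its regulators and hypoxia genes, 1 was at 2-fold towards the streak and 0 towards cSR, with a median of 0.30. CA9, a carbonic anhydrase induced by low oxygen, had 1.10, MYC -0.95, PFKFB3 0.90 and ARNT 0.78. The relative NDRG3 had 0.40 in cPS and from 0.00 to 1.07 in the other 3 series over the same cSR cells. NDRG4 had 0.26 in cPS and 0.88 in cPS2, but -1.58 in cPS1 and -0.27 in cPS3. Of 9 other RNA cytosine methyltransferases and readers, 2 were at 2-fold towards the streak, 1 of them at 4-fold, and 0 towards cSR, with a median of 0.70. NSUN7 had 2.22, the mitochondrial enzyme gene NSUN3 1.41, NSUN5 0.85 and ALYREF, an mRNA export factor that reads the mark, 0.84. NSUN7 was also higher in cPS1, cPS2 and cPS3 than in the same cSR cells, by 1.92, 2.17 and 1.36, whereas NSUN3 had -0.62 in cPS1. Of 8 vertebrate counterparts of the yeast mitotic exit network, the phosphatase genes CDC14A at 2.29 and CDC14B at 1.76 were at 2-fold towards the streak, CDC14A at 4-fold, and 0 were towards cSR. STK38 had 0.73 and STK4 -0.50, and the median was 0.28. In cPS no list had a gene at 2-fold towards cSR other than the surround members themselves. Over the same cSR cells NRP1 had -1.63, -1.55 and -3.02 in cPS1, cPS2 and cPS3, ALK had -1.81 in cPS2 and -2.02 in cPS3, ITGB3 had -1.08 in cPS1 and -1.47 in cPS3, EGLN3 had -1.52 in cPS2 and -1.77 in cPS3, and TRDMT1 had -1.76 in cPS3.

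The RefSeq gene table (assembly GRCg7b) places AMN1 and PTN on chromosome 1, with 14 named genes between them, and NDRG1 and NSUN6 on chromosome 2, and LOC101747643 was not matched. Their 24 neighbours are the 3 nearest named genes on each side that are in both count tables, so genes missing from either were passed over. Of the 15 neighbours at 5 CPM or more, 1 was at 4-fold towards the streak and 2 towards cSR, where all genes gave 3.75% and 5.04%, and 6 were at 2-fold in either direction, where all genes gave 11.7% towards the streak and 14% towards cSR. Beside AMN1, BICD1 had -0.36, DENND5B -0.35, FAM60A -0.22, DNM1L 0.82 and YARS2 0.84, so none came near the -5.36 of AMN1. MIR1593 had 0 counts in cPS and cSR. Beside PTN, DGKI had 1.70, in the opposite direction, with CREB3L2 at 0.27, SSBP1 at -0.21 and MTPN at 0.05, while CHRM2 and MIR490 were at 0. NDRG1 had 2 neighbours on 1 side that lay in its direction, ST3GAL1 at -1.86 and ZFAT at -2.22, while WISP1, SLA, TG and MIR30B were under 5 CPM in both tissues. NSUN6 lay beside CACNB2, a calcium channel subunit gene, at 2.31, with SLC39A12 at -2.56 and PLXDC2 at -1.28, and NEBL and TRNAM-CAU under 5 CPM. The r of members with their neighbours over the cells ran from -0.20 to 0.29, and that of NSUN6 with CACNB2 was 0.18.

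Expected counts are not whole where a read was divided between places it could have come from. Of AMN1 values of at least 20 counts, 21.2% were whole, against 57.5% for all genes, 76.9% for PTN, 75.6% for NDRG1, 64.8% for LOC101747643 and 38.9% for NSUN6. Values that were not whole held 96.9% of AMN1 counts, 76.75% of NSUN6 counts and 70.5% of all counts. Whole values were thus rarer for AMN1, and less strongly for NSUN6, than over all genes together. The levels of both are uncertain to an extent that these values do not give. How many reads were divided cannot be read from the values.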

How the data were processed

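RNA of single cells was measured, and each library is taken as 1 cell. Per the labels' protocols, single-cell libraries were made with a Nextera XT kit. Build galGal4, RSEM 1.2.3, CASAVA 1.8.2 and Bowtie 0.12.9 (1 cell: 0.12.8) are listed, with no roles, in the submitters' processing notes. The deposited values are the authors' expected counts per gene, unscaled, and the annotation and filters behind them were not given in the sources used here. An incomplete last row of the streak table was dropped, and 20581 genes complete in both tables were used. Another 640 genes, with 3.42% of the surround counts, were in the surround table only. Totals, CPM, ranks and shares of genes leave them out. No cell was removed and no doublet caller was run. The highest r between 2 cells was 0.857, so no library appeared more than once.

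CPM, pooled CPM, log2 ratios (pseudocount 1 CPM, which understates ratios of low genes), shares and r were computed with Python 3.11.15, numpy 2.4.6, pandas 2.3.3 and scipy 1.17.1, and plots with matplotlib 3.10.9. Scaling alternatives used edgeR 4.0.16 and DESeq2 1.42.0 in R 4.3.3. The ratio step was tested on simulated data. Members and lists were chosen with earlier results of these data known. Genes named were the members, for each the 5 highest and 2 lowest r, 3 neighbours on each side (1 is not reported here) and up to 4 related genes of largest ratio, HINTW, and markers at an r of 0.4 or more in size; MDK, PTPRZ1, NDRG3, NDRG4, T, SHH, DDX4, SOX17, CHRD, FOXA2, APOA1, RBP4, ALK, ITGB3, EGLN3, TRDMT1 and the genes at the 4-fold limit were named besides, after their values were seen. Alternatives were other pseudocounts, summaries, scalings, filters, limits of detection, depths and subsets of cells.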

Additional observations from a re-analysis of the deposited data

How the results depend on the processing

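No alternative of the 14 tried within cPS turned the direction of a member in cPS. The count of members at 4-fold fell from 5 to 4 with a pseudocount of 10 CPM, with the mean of log2 values, in block 1 and in cells with high HINTW, where NDRG1 had -1.81, -1.49, -1.01 and -1.59, and with all streak cells, where PTN had -1.90. Genes past the stricter rule were 0.335% of all genes in the comparison reported. That share was 0.151% with a pseudocount of 10 CPM, 0.131% with the mean of log2 values, 0.578% without epiblast-labelled cells, 0.996% in block 1, 1.297% in block 2, 1.56% in cells with low and 0.909% with high HINTW, 4.87% with no filter, 2.22% with a limit of 10 CPM and 10% of cells, and 0.117% with all streak cells. Size factors of DESeq2 shifted log2 ratios by 0.084. In the cSR cell of lowest total, NSUN6 alone made a mean of CPM per cell give a log2 ratio of 2.66 in place of 4.43; leaving it out was chosen after seeing the data. In cPS1, cPS2 and cPS3, 4-fold held in 12 of 12 alternatives for AMN1, in 11, 8 and 9 for NDRG1, in 9, 8 and 9 for NSUN6, in 9, 10 and 10 for LOC101747643 and in 1, 10 and 2 for PTN. With high HINTW, NSUN6 in cPS2 had 0.44 and LOC101747643 in cPS1 0.20. Shares of cells depend on the limit of detection. With limits of 1 and 50 CPM and with counts thinned to 1000000 per cell, 22 shares left their interval and 53 stayed inside. At 1 CPM the AMN1 share in cPS was 25.9% in place of 7.41%. The NSUN6 shares at 1 CPM were 27.0% in cPS1 and 26.7% in cSR. With 1 sample per series, depth and cell number limit every value. No paired analysis was possible because the title numbers name cells and no result comes from a test.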
